A study of Homo sapiens with 4 samples.

Results

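The regions described here were the ATAC-seq peaks of wild-type (WT) HEK293T cells that lay in the short arms of the acrocentric chromosomes or in the large pericentromeric blocks of chromosomes 1, 9 and 16. They were chosen by position alone, on the telomere-to-telomere human assembly CHM13. A peak was a member when its end lay below 17 Mb on chr13 or chr15, 12 Mb on chr14, 11 Mb on chr21 or 15 Mb on chr22, or when it lay within 121 to 143 Mb of chr1, 44 to 77 Mb of chr9 or 35 to 52 Mb of chr16. These 8 windows spanned 144 Mb and held 57 of the 50883 WT peaks (0.112%), of which 36 lay on the acrocentric short arms and 21 in the windows of chr1, chr9 and chr16.

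ATAC-seq uses the Tn5 transposase to cut and tag DNA that is not wrapped or packed away, so that a peak marks a stretch of open chromatin. HEK293T is an aneuploid human embryonic kidney line. The series held 2 libraries of WT cells and 2 of cells in which the chromatin ATPase MORC2 had been knocked out (KO) with Cas9, each KO library being a bulk pool made with its own guide RNA, so that guide and replicate cannot be told apart. The WT peak list was called once for both WT libraries together, and the promoter counts were given for each of the 4 libraries. The copy number of these chromosomes in HEK293T was not analysed here, and markers of the cell line were not checked. An edit made with a guide RNA leaves promoter counts in place, so that the loss of MORC2 could not be checked in these values.

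Pericentromeres are the classic example of constitutive heterochromatin. They consist of long satellite repeats, carry the H3K9me3 mark that recruits HP1 proteins, and are kept silent in nearly every cell type. The acrocentric short arms are built of similar satellites and of duplicated segments, but also contain the arrays of ribosomal DNA (rDNA), the repeated genes for the 45S precursor of the 18S, 5.8S and 28S ribosomal RNAs around which the nucleolus forms. MORC2 acts with the silencing complex HUSH, a reader of H3K9me3.

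Peaks have no gene names here, and the CHM13 sequence beneath them was not read, so that their repeat class and gene content were not analysed here. The sequences shown instead belong to genes of the short arms whose promoter counts are given further down, as RefSeq gives them on GRCh38.p14, an assembly other than that of the peaks. The first pair are the mature forms of microRNAs whose genes lie in the rDNA unit, with the seed (bases 2 to 8) in capitals. The third is the promoter of TPTE, a gene of the short arm of chromosome 21 for a testis-expressed phosphatase-like protein, and covers 250 bases before to 50 bases after the gene start at chr21:10521333-10521632 on the + strand, with each CG in capitals. The seeds of the pair differ, and the TPTE window had a GC content of 74% and 44 CG dinucleotides, more than 95.8% of 35116 promoter windows of that length.
hsa-miR-3648: aGCCGCGGggaucgccgaggg
hsa-miR-6724-5p: cUGGGCCCgcggcgggcgugggg
TPTE promoter: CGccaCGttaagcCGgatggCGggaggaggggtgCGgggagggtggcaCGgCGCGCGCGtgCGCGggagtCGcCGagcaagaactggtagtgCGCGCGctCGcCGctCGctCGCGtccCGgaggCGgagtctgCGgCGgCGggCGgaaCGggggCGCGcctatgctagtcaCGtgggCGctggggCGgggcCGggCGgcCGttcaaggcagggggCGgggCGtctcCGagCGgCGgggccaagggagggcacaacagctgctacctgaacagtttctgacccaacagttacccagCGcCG

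The windows were almost free of peaks. They held 0.396 peaks per Mb, against 20.5 per Mb in the remainder of the same 8 chromosomes up to their last peak and 15.9 per Mb in the 10 Mb on the long-arm side of each window. On the acrocentric short arms the density was 0.500 per Mb, and in the windows of chr1, chr9 and chr16 it was 0.292 per Mb. Among single windows it was highest on chr21, with 11 peaks in 11 Mb (1.00 per Mb), and lowest on chr16, with 1 peak in 17 Mb (0.0588 per Mb). The chr22 window held 11 peaks, chr13 held 8, chr15 held 4, chr14 held 2, chr1 held 15 and chr9 held 5. In each of the 8 windows the density lay below that of the flank beside it, where it ranged from 4.30 per Mb on chr15 to 30.6 per Mb on chr1. The peak list carries no replicate values and peaks are not replicates of a condition, so that no test was made of this or of any other difference between sets of peaks. Read pairs with a mapping quality under 30 had been discarded before peaks were called, so a peak could be seen only where pairs could be placed uniquely. How much of each window met that condition was not tested.

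**Figure D1:**
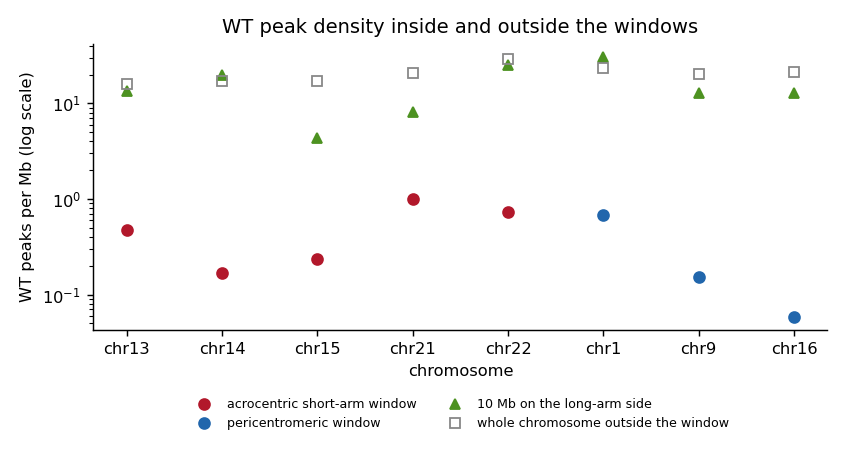
WT peaks per Mb (log scale) for each of the 8 chromosomes, inside the window (filled circles), in the 10 Mb on its long-arm side (triangles) and over the chromosome outside the window up to its last peak (open squares). In each chromosome the window lies below both other values, from 0.0588 per Mb on chr16 to 1.00 per Mb on chr21.

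Long stretches without a peak filled the remainder of the windows. The longest in the whole list ran on chr9 for 28.1 Mb, from the last member at 48.9 Mb to the first peak beyond the window at 77.0 Mb. Stretches of 14.4 Mb on chr15, 14.1 Mb on chr1, 13.4 Mb on chr16 and 11.5 Mb on chr14 came next, followed by 9.04 Mb on chr13 and 7.59 Mb on chr22. Of the 10 longest stretches between neighbouring peaks on any nuclear chromosome, 9 lay wholly or partly in these windows. The tenth, of 6.54 Mb, was on chr18.

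The members were not spread evenly in their windows. On the acrocentric short arms the first peak lay at 1.99 Mb on chr14, 2.32 Mb on chr15, 2.81 Mb on chr21, 4.31 Mb on chr22 and 5.43 Mb on chr13, and nothing was called nearer to the short-arm end. The last lay at 2.01 Mb on chr14, 4.70 Mb on chr15, 6.44 Mb on chr21, 9.26 Mb on chr13 and 9.81 Mb on chr22. Beyond these, between 4.56 and 12.3 Mb of each acrocentric window held no peak up to the edge. On chr1, by contrast, 14 of the 15 members lay within 1 Mb of an edge of the window, and the single peak between them was chr1:128169164-128169549, with a fold enrichment of 3.88. No peak crossed an edge.

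Fold enrichment is the authors' ratio of fragments at the peak summit to the background that the peak caller used. For 34 of the 57 members that background was the caller's lowest value, as given further down, and not a higher local one. By fold enrichment, the few peaks present were spread more widely than the other nuclear peaks. The median was 7.16 (quartiles 4.38 and 13.5) for members and 5.91 (3.78 and 8.79) for the 50821 other nuclear peaks. In the 10 Mb flanks it was 6.48 (4.18 and 9.45). The lower quartiles of the 3 sets were close to one another, and the sets parted in the upper range. Of the members, 22 of 57 (38.6%) had a fold enrichment over 10, against 17.1% of the other peaks and 21.2% of the flank. Over 15 were 11 members (19.3%) and 1.01% of the other peaks, and over 20 were 6 members (10.5%) and 0.0571% of the other peaks. The acrocentric short arms held 5 of these 6.

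**Figure D2:**
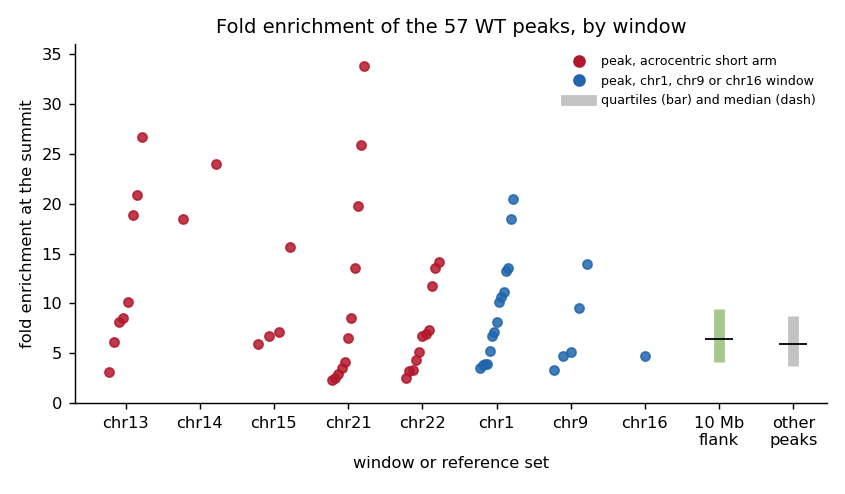
Fold enrichment at the summit of each of the 57 peaks (points) by window, beside the median and quartiles of the peaks in the 10 Mb flanks and of all other nuclear peaks. The windows of chr13, chr14, chr21 and chr1 hold peaks above 18, whereas the quartiles of the other peaks are 3.78 and 8.79.

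The 5 members with the highest fold enrichment lay on chr21, chr13 and chr14. The strongest was chr21:2810158-2810829, which was 672 bp wide with a fold enrichment of 33.8 and a −log10 q of 253, and ranked 4th among all 50883 peaks. The next was chr13:9212844-9213486, with a fold enrichment of 26.7 and rank 6. It was followed by chr21:3113887-3114503, with 25.9 and rank 9, and by chr14:2005091-2005943, with 24.0 and rank 10. Thus 4 of the 10 peaks with the highest fold enrichment in the list lay in acrocentric short arms. The fifth member, chr13:9203849-9204286, had a fold enrichment of 20.9 and rank 28. By −log10 q, which grows with the number of fragments as well as with the fold, no member was among the first 100 peaks.

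In width the members were slightly narrower at the median and had a shorter upper tail. The median width was 513 bp (quartiles 314 and 829) for members, 534 bp (322 and 1002) for the other nuclear peaks and 577 bp (327 and 1063) for the flanks. At least 1 kb wide were 6 members (10.5%), against 25.1% of the other peaks and 27.9% of the flank. Together the members covered 32.8 kb. The −log10 q was close to that of the other peaks, with a median of 19.1 (quartiles 8.70 and 57.8) against 20.3 (7.20 and 58.2), and lay below the 26.4 of the flank. The member median moved with the choice of windows, to 31.2 with edges 1 Mb outward, above that of the other peaks. It moved to between 18.1 and 24.9 with single windows left out. With member neighbours under 1 kb apart merged it was 25.9. That merging kept the highest value of each group and was not applied to the other peaks, so the merged value cannot be set against theirs. At least 10 were 41 members (71.9%), against 67.6% of the other peaks. The 36 acrocentric peaks and the 21 others differed little at the median, with 524 and 458 bp, fold enrichments of 7.26 and 7.16, and −log10 q of 21.5 and 19.1.

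**Figure D3:**
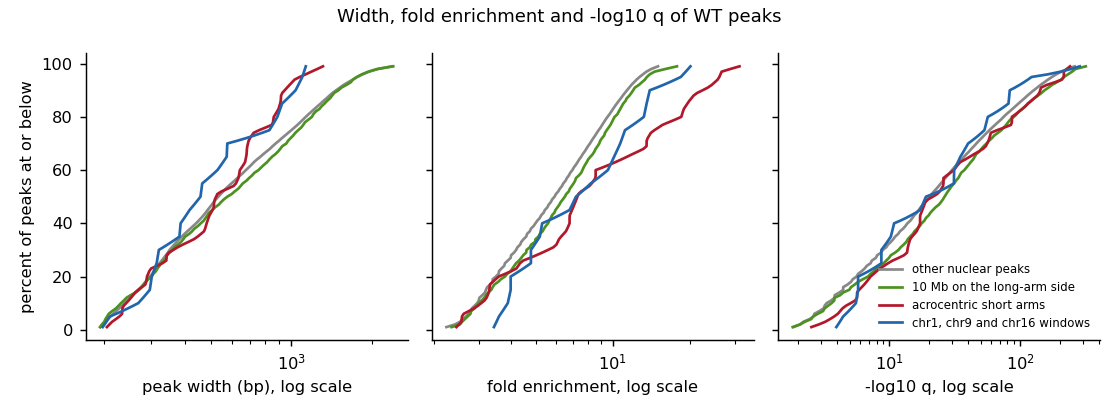
Cumulative distributions (percent of peaks at or below a value) of width in bp, fold enrichment and −log10 q, each on a log scale, for peaks of the acrocentric short arms, of the chr1, chr9 and chr16 windows, of the 10 Mb flanks and of the remaining nuclear genome. For fold enrichment, the curve of the acrocentric short arms is already at higher values than that of the other nuclear peaks at 40% (6.77 against 4.97). In the upper range 38.6% of members and 17.1% of the other peaks exceed a fold of 10. The curves for width lie apart in the upper range, where 10.5% of members and 25.1% of the other peaks are at least 1 kb wide.

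Because fold enrichment is a ratio, the fragments behind it were recovered. With a fold of (fragments + 1) / (background + 1) and a Poisson p-value, each peak's fold and −log10 p together give the number of WT fragments piled up at the summit, pooled over both libraries, and the background they were set against. A whole number of fragments resulted for 99.99% of peaks, within 10% of the step that 1 fragment makes. The summits of members held a median of 42 fragments (quartiles 26 and 70), and those of the other nuclear peaks 46 (25 and 105). The background differed more than the summit did. It was at the lowest value the caller used, 4.03 fragments, for 34 of 57 members (59.6%) and for 17.8% of the other peaks, and its median was 4.03 for members and 6.91 for the other peaks. Over 6 fragments were the backgrounds of 12 members (21.1%) and of 57.1% of the other peaks. The strongest members included peaks of low background. The chr13:9212844-9213486 peak, for example, had 133 fragments at the summit and a background of 4.03. The chr21:2810158-2810829 peak had 217 fragments and a background of 5.46.

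**Figure D4:**
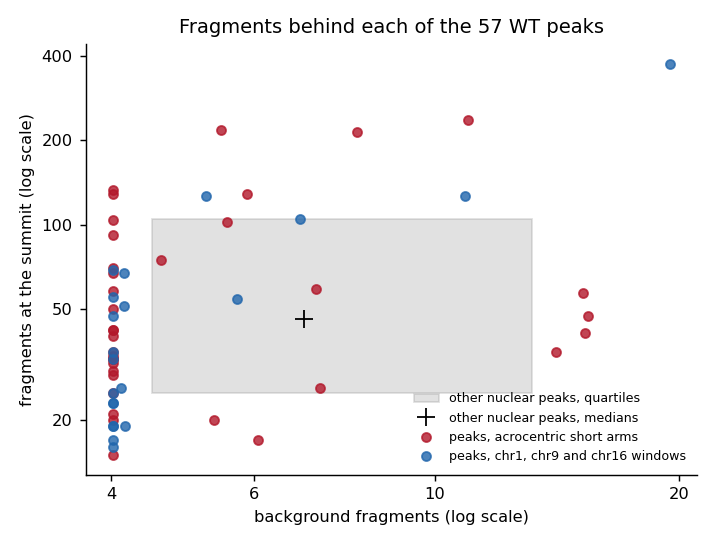
Fragments at the summit against background fragments (both on log scales) for each of the 57 peaks, with the medians (cross) and quartiles (grey box) of the other nuclear peaks. There are 34 peaks in the column at the lowest background, 4.03, and 4 peaks of chr21 stand together at a background of 14.1 to 15.4.

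At a given fold a lower background means fewer fragments and, by the Poisson model, a lower −log10 q. A comparison of −log10 q with other peaks of equal fold enrichment therefore restates the backgrounds. Whether width is linked to background was not tested. Each member was set beside the other nuclear peaks whose fold lay within 2% of its own, which was possible for 56 of the 57, as none lay so near to chr21:2810158-2810829. The −log10 q was below the median of those peaks for 48 members and above it for 8, and the width was below for 37 and above for 19. Among nuclear peaks with a fold enrichment above 8.79, the 23 members had a median width of 672 bp and a median −log10 q of 83.3, against 1037 bp and 100 for the other peaks. Among those up to a fold of 3.78, the 10 members instead had the higher medians, with 322 bp and 4.47 against 298 bp and 3.81. These 10 included 4 adjoining peaks of a single stretch, chr21:5612661-5617079, with widths of 343, 861, 918 and 727 bp. The remainder were between 234 and 532 bp wide, so the higher medians rest largely on 1 locus. The 8 members with the higher −log10 q were 5 peaks of chr21 and 1 each of chr14, chr22 and chr1, and their backgrounds ranged from 7.24 to 19.5 fragments.

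On chr13, the 8 peaks formed a distal and a proximal group with 3493 kb between them. The group at 5.43 to 5.68 Mb held 3 peaks of moderate fold, from 6.17 to 8.56. The group at 9.17 to 9.26 Mb held 5, of which chr13:9203849-9204286, chr13:9212844-9213486 and chr13:9251894-9253271 reached 20.9, 26.7 and 18.9. The last of these was, with 1378 bp, the widest of all members. The backgrounds of 7 of the 8 peaks were at the minimum.

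On chr14 only 2 peaks were called, and both were strong. The chr14:1993508-1994481 peak was 974 bp wide with a fold enrichment of 18.5, and chr14:2005091-2005943 was 853 bp wide with a fold of 24.0 and a −log10 q of 216. They lay 10.6 kb apart and had 92 and 215 fragments at their summits. No further peak was called until chr14:13482416-13482614, beyond the window, which had a fold of 3.18.

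On chr15 the 4 peaks lay in pairs. The first pair held chr15:2318158-2318852, the strongest and widest of this window, with 695 bp and a fold of 15.7, and a weaker peak 52.5 kb away, with a fold of 7.16. The second pair, near 4.70 Mb, had folds of 6.77 and 5.97.

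The chr21 window was the densest and the most uneven. Its 5 peaks between 2.81 and 3.12 Mb had folds of 33.8, 19.8, 13.6, 25.9 and 8.56 in order of position. The chr21:2863877-2864912 peak among them had the most summit fragments of any acrocentric peak, 236, over a background of 10.99. A run of 4 peaks followed at chr21:5612661-5617079, spanning 4419 bp with gaps of at most 1.07 kb, and was the weakest part of the window by fold, with 2.38, 3.57, 2.57 and 2.92. Its summits held between 35 and 57 fragments, more than the 32 and 20 of the last peaks of the window, but its backgrounds of 14.1 to 15.4 fragments were the highest on the acrocentric arms. These 4 peaks had −log10 q from 4.00 to 13.9, each above the median of other peaks with the same fold. The last peak, chr21:6434881-6436079, was the widest of the window, with 1199 bp and a fold of 4.18.

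On chr22 no peak reached a fold of 15. The strongest was chr22:4549494-4549875, with a fold of 14.1 and a −log10 q of 57.8, followed by chr22:4310582-4310870, with 13.5. The widest was chr22:5803356-5804251, with 896 bp and a fold of 7.35. Between 5.80 and 5.82 Mb, 4 peaks had raised backgrounds of 5.36 to 7.24 fragments, and the weakest of them, chr22:5819851-5820147, had a fold of 2.55 and the lowest −log10 q of all members, 2.18. A single peak, chr22:9807374-9807635, with a fold of 5.17, lay 3945 kb from its nearest neighbour in the window.

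In the chr1 window, 7 peaks lay between 121.0 and 121.5 Mb and 7 between 142.3 and 142.9 Mb. The highest fold enrichment was 20.5 at chr1:121106596-121107520. The highest −log10 q of any member, 326, belonged to chr1:121193753-121194791, which had 376 summit fragments over a background of 19.5 and a fold of 18.4. On the far side, 4 peaks ran from 142792331 to 142808940, a stretch of 16610 bp, with folds of 8.19, 10.1, 5.29 and 13.5. The last of these, chr1:142807798-142808940, was the widest of the window with 1143 bp. Strong peaks also lay just outside both edges, with folds of 16.1 at chr1:120951382-120952356 and 12.1 at chr1:143498294-143499283, against 13.2 and 6.77 for the members nearest to those edges.

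Per Mb, the chr16 and chr9 windows held the fewest peaks (0.0588 and 0.152), with chr14 next (0.167), although chr14 and chr15 held fewer peaks than chr9 by number. On chr9, chr9:44295836-44296300 was first by fold, −log10 q and width, with 13.9, 56.6 and 465 bp. The other 4 peaks had folds between 3.38 and 9.55, and the last pair lay 1.16 kb apart near 48.9 Mb. The only peak in the chr16 window was chr16:38921017-38921474, 458 bp wide, with a fold of 4.78 and 23 summit fragments. All 6 peaks of these windows had the minimum background. The peaks just outside had folds of 5.57 at chr9:43678010-43678471, 4.58 at chr9:77009674-77010097, 8.46 at chr16:32260916-32262278 and 11.3 at chr16:52351263-52351622.

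On the other acrocentric chromosomes the first peak beyond the window, in long-arm direction, had a fold of 5.77 on chr13, 4.18 on chr15, 12.9 on chr21 and 10.3 on chr22. The last members inside had folds of 10.1, 5.97, 4.18 and 5.17.

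To see how chromatin of the short arms was covered in single libraries and in MORC2 KO cells, the promoter counts of genes located there were examined. The list held 33 symbols, of the rDNA genes, of the microRNAs within the rDNA unit, and of TPTE and the BAGE genes, which are expressed in germ cells and tumours. Of these, 29 were in the RefSeq gene table and 23 in the promoter table, where promoters are 2 kb windows. That table, on GRCh38, puts BAGE5 on chromosome 13. Whether a row falls in the windows above, on CHM13, was not analysed here, and the rDNA genes are near-identical copies, so that the assignment of fragments to a copy is uncertain.

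Many rows held no fragments. Of the 23 rows, 10 were at 0 in all 4 libraries, namely RNA45SN1, RNA45SN3, RNA18SN1, RNA28SN1, RNA28SN3, RNA5-8SN1, RNA5-8SN3, MIR6724-2, MIR6724-3 and MIR6724-4. A count of 0 allows up to 3 fragments, or from 0.176 to 0.332 CPM by library, counting error only. Pairs with a mapping quality under 30 had been discarded before counting as well. How many pairs of the near-identical rDNA copies were lost in this way was not tested. Low or 0 counts in the rDNA unit are therefore no measure of how open it was. A further 3, RNA18SN3, RNA18SN4 and MIR6724-1, held 1 fragment in all. TPTE held 4 and 3 fragments in WT replicates 1 and 2, and 1 and 6 in KO replicates 1 and 2. RNA45SN2, the row at the start of the rDNA transcript, held 8 and 8 fragments in WT and 4 and 9 in KO. RNA28SN2, a copy of the 28S gene, held 6 and 1 in WT and 3 and 2 in KO. RNA5-8SN5 held 3 and 3 in WT and 1 and 3 in KO, and BAGE5 held 1 and 0 in WT and 3 and 4 in KO. None of these rows had enough fragments for a test. Scaled to the nuclear promoter counts alone, unlike the TMM-scaled CPM elsewhere, the 23 rows together took 25.5 and 26.0 CPM in KO replicates 1 and 2, and 35.0 and 30.7 CPM in WT. In each library most of these fragments lay in RNA18SN2 and MIR3648-1, which are described below. The sum was not tested, and of all single tested promoters 25.4% also lay lower in both KO libraries in TMM-scaled CPM. Total promoter counts were higher in both KO libraries than in both WT libraries.

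Only 5 rows passed the filter on low counts, RNA18SN2, RNA5-8SN2, MIR3648-1, MIR3648-2 and BAGE2. Their level in WT was low, from 1.07 to 7.43 CPM, against a median of 16.7 CPM over the 27647 promoters tested. RNA18SN2, a copy of the 18S gene, stood highest and lay above 38.1% of tested promoters. The RNA18SN2 row (Gene ID 109864280) held 76 and 63 fragments in WT replicates 1 and 2, and 56 and 104 in the deeper KO libraries, which is 7.43 ± 0.647 CPM in WT and 5.62 ± 0.680 CPM in KO (SD, n = 2 each). Both KO libraries lay below both WT libraries, as they did for 25.4% of all tested promoters. MIR3648-1 (Gene ID 100500862), a neighbouring row with similar counts in every library, held 74 and 56 fragments in WT and 52 and 90 in KO, or 6.94 ± 1.05 and 5.02 ± 0.359 CPM (SD, n = 2 each). Here too both KO libraries lay lower.

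None of the 5 rows was called at an adjusted p under 0.05 in edgeR's quasi-likelihood test, where 4.45% of all tested promoters were (3.45% higher and 0.995% lower in KO). The log2 fold change, KO against WT, was −0.38 (SE 0.19, 95% interval −0.75 to −0.019) for RNA18SN2, with an edgeR adjusted p of 0.218. For MIR3648-1 it was −0.46 (SE 0.19, interval −0.84 to −0.078), with an adjusted p of 0.152. These 2 had an unadjusted p under 0.05 (0.0390 and 0.0183), and whether these neighbouring rows share fragments was not tested. RNA5-8SN2, a copy of the 5.8S gene, held 21 and 23 fragments in WT and 23 and 34 in KO, BAGE2 held 24 and 22 in WT and 37 and 45 in KO, and MIR3648-2 held 12 and 8 in WT and 15 and 16 in KO. In CPM the groups did not overlap for RNA5-8SN2, lower in KO, and for BAGE2, higher in KO, and they did overlap for MIR3648-2. Thus 4 of the 5 rows had groups that did not overlap, and of all tested promoters 50.6% did (25.2% higher and 25.4% lower in KO), so that with 2 libraries a group this separation is common. The fold change was −0.21 (interval −0.80 to 0.39) for RNA5-8SN2, 0.052 (−0.77 to 0.87) for MIR3648-2 and 0.25 (−0.29 to 0.80) for BAGE2, with edgeR adjusted p of 0.735, 0.959 and 0.635. The median over the 5 rows was −0.21, and over all tested promoters −0.017. The intervals are wide, and changes of different size within them could not be told apart with 2 libraries a group. With total count scaling or with offsets on abundance, 0 of the 5 rows had an unadjusted p under 0.05. Total counts include mitochondrial rows, whose share differed between libraries. With those rows left out and TMM scaling kept, 2 of the 5 rows had an unadjusted p under 0.05 and 0 were called.

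**Figure D5:**
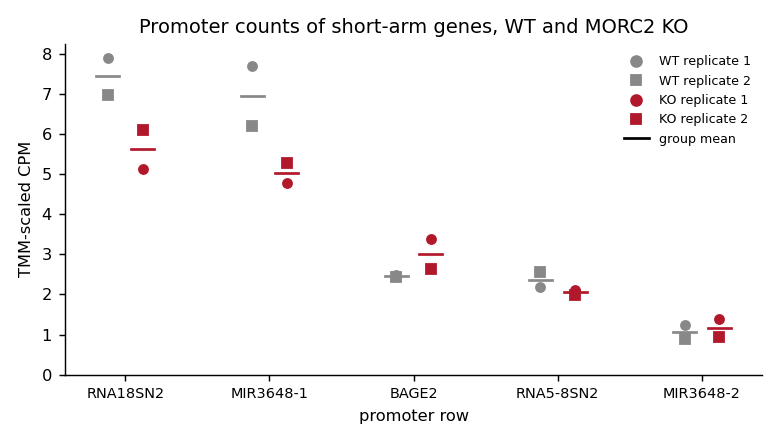
TMM-scaled CPM of the 5 tested promoter rows of short-arm genes in each WT and MORC2 KO library (points), with group means (lines, n = 2 each). RNA18SN2 and MIR3648-1 lie lower in both KO libraries than in both WT libraries, as 25.4% of all tested promoters do, and no row passes an adjusted p under 0.05.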

How the data were processed

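ATAC-seq libraries of WT and MORC2 KO HEK293T cells (2 each) were sequenced in paired ends. After adapter trimming (Trim Galore), the authors mapped pairs to T2T-CHM13 by bowtie2, discarded unmapped, discordant and low-quality (mapping quality under 30) pairs, and removed duplicates with Picard. Peaks came from MACS2, which the authors ran on fragments, and 1 deposited list serves both WT libraries. Its fold enrichment (a ratio), its −log10 p and q-values and its score are the authors' own, as deposited, and the score was not used. The deposited promoter counts are raw fragment counts per Gene ID. For their window-level tests the authors counted fragment midpoints, and whether the promoter table was counted likewise is not given in the sources used here.

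Peak positions are on CHM13, counting from 1. Peaks were assigned to windows with pandas 2.3.3, and 5 mitochondrial peaks were left out of the other nuclear peaks. Summit fragments and backgrounds were derived from fold and −log10 p, a step chosen after the values were seen and tested on simulated data. Peak sets were described by medians and quartiles without a test. The peaks given individually are, as a rule, those of each window with the highest fold, −log10 q or width, the first and last, those nearest each edge, and runs of at least 4 with under 10 kb between neighbours. Others were named after their values were seen. The members and lists were chosen with earlier results of these data known.

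Promoters were filtered with filterByExpr, scaled by TMM and compared in edgeR 4.0.16 under R 4.3.3 by its quasi-likelihood test (legacy fit, no covariates), fitted on all 27647 promoters that passed, with Benjamini-Hochberg adjustment. CPM are TMM-scaled. Every list gene in the table is reported. Libraries held between 9435801 and 15152636 promoter counts in all, mitochondrial rows included. Nuclear rows held 6601963 of 10072386 counts in WT replicate 1 and 6119609 of 9435801 in WT replicate 2. In KO replicates 1 and 2 they held 7661443 of 11240430 and 12036024 of 15152636. Replicates differed by more than sampling noise (chi-square per degree of freedom 1.20 in KO and 1.32 in WT). The study describes the WT replicates and the KO lines as independent, while the labels name no cultures, and p-values measure the spread between these libraries. Symbols were found for 28763 of 28775 IDs in the RefSeq table of GRCh38.p14. Data of other assays were left out. Alternatives covered the peak threshold, window edges, merging, each window, scaling, filter, fit, a replicate block, DESeq2 1.42.0 and each library.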

Additional observations from a re-analysis of the deposited data

How the results depend on the processing

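Windows widened by 1 Mb at each edge held 98 peaks with a median −log10 q of 31.2 against 19.1 as chosen, and the split into acrocentric windows (36) and those of chr1, chr9 and chr16 (21) was chosen after seeing the data. Other settings were stricter q thresholds, overlap by 1 base, edges moved 1 Mb inward, merging under 1 kb and each window left out. In these the number stayed within 1.5 times of 57. The medians of width, fold and −log10 q stayed within their 95% binomial intervals (386 to 643 bp, 5.97 to 10.1 and 13.9 to 34.9). These intervals take the 57 peaks as independent and are wide, so that staying within them is a weak criterion. With a −log10 q of at least 10, the medians of fold (10.1) and −log10 q (34.9) lay at the upper limits. Fold was 1.21 times that of the other nuclear peaks at the median, and 1.11 to 1.33 times under the alternatives. Width was 0.961 times that of the other nuclear peaks at the median, and 0.756 to 0.975 times under the alternatives. The lowest width ratio was that with a −log10 q of at least 10. The difference in median −log10 q, −1.29, was −7.39 against the 10 Mb flanks.

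Of the short-arm promoter rows 0 were called in every fit that gave an adjusted p, leaving out each library included (0 to 0). DESeq2 with its independent filter gave the 5 rows no adjusted p, and without the filter, an alternative added after seeing the data, it called 0, with 0 at an unadjusted p under 0.05. With the replicate number as a block 0 were called, with 2 at an unadjusted p under 0.05. Deviations of same-numbered libraries correlated at 0.0003, and the libraries were not taken as paired. The sign of RNA5-8SN2 turned with loess offsets (0.072), and that of MIR3648-2 without KO replicate 1 (−0.17) and without WT replicate 2 (−0.17), its range with each library left out being −0.17 to 0.36. The cause was not tested. The other 57 of 60 values for these rows kept their direction and remained uncalled. MIR3648-1 ranged from −0.60 to −0.29 and RNA18SN2 from −0.53 to −0.27 with each library left out, and without KO replicate 1 or without WT replicate 1 neither had an unadjusted p under 0.05. Depth limited both kinds of values: the summit with the fewest fragments among members held 15.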

Other observations

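The median position of the summit within the peak differed between sets, while the quartiles were broad and overlapped. In the 36 acrocentric peaks the summit lay at a median of 37.9% of the width from the lower coordinate (quartiles 20.7 and 61.0%). In the 21 peaks of chr1, chr9 and chr16 it lay at 63.1% (36.6 and 71.5%). In the other nuclear peaks it lay at 49.5% (32.5 and 66.2%). Among single acrocentric windows the median ranged from 22.6% on chr15 to 51.0% on chr21. These are values of single peaks in 1 pooled list, and the difference was not tested.

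Outside the windows, the longest stretches between neighbouring peaks were 6.54 Mb on chr18, 6.44 Mb on chr4, 6.27 Mb on chr11, 6.17 Mb on chrX, 6.15 Mb on chr7 and 6.14 Mb on chr19. All were shorter than the stretches on chr9, chr15, chr1, chr16, chr14, chr13 and chr22, and longer than that on chr21 (5.60 Mb).

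Of the 57 peaks, 30 lay in 13 groups with under 10 kb between neighbours, and 27 stood alone.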
